A study of Xenopus tropicalis with 5 samples.

Results

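The messenger RNAs of ncor1 and sin3a, which encode 2 scaffold proteins of transcriptional corepressor complexes, were followed site by site in a map of 5-methylcytosine (m5C) from Xenopus tropicalis embryos at stage 0. Their sites were taken as every listed cytosine whose gene symbol was ncor1 or sin3a, which gave 31 of the 23009 sites and 2 of the 6853 genes found over all lists. Of these sites, 26 were in ncor1 and 5 in sin3a. The pair was selected on the sites listed for it, with their number and levels already known, so numbers and levels are given as a description and tests concern only differences between lists.

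About 200 wild-type embryos were pooled for RNA isolation. Polyadenylated RNA was purified from the whole embryos, treated with bisulfite and sequenced in 5 libraries. The paper does not state whether a single pool of embryos served all libraries. By their labels, 2 libraries were made from 100 ng of RNA and 1 each from 5, 10 and 20 ng, all from the same stage and with no other treatment. Bisulfite turns unmethylated cytosine into a base that is read as T, while m5C is still read as C, and the m5C level of a site is the percentage of its C and T reads that kept C. The authors merged both 100 ng libraries into a single list and gave each lower input a list to itself, so the 4 lists carry no spread between replicates. The inputs are those of the labels. The protocol attached to them gives 100 ng as the least RNA taken into conversion and 20 ng as the converted RNA taken into fragmentation, so the step at which a lower input applied is not known.

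The 5, 10, 20 and 100 ng lists held 13153, 12341, 13178 and 18524 sites with a median coverage of 80, 80, 83 and 183 reads, and 8572 sites (37.3% of the union) were in every list. The lists stop at 20 reads and at a level of 10%. No listed site had fewer than 4 unconverted reads at 100 ng or 5 at the lower inputs. With few reads, a listed site therefore had a level above 10%. A site missing from a list had fewer reads, a lower level or failed the authors' call, and its absence is no measure of an unmethylated cytosine. For samples with replicates, the paper required a site in both replicates and a low combined p-value. Where a site lacked coverage in a replicate, it required at least 5 unconverted reads. The lower inputs had no replicate, so their call could not follow the rule for both replicates. Intervals given with levels are exact Clopper-Pearson 95% intervals. They cover counting error only, since sequenced copies were not identified as separate molecules.

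Ncor1 is a large scaffold that binds unliganded nuclear receptors and other DNA-bound repressors and carries histone deacetylase 3, whose activity it stimulates, together with the TBL1 proteins and GPS2. Sin3a is the scaffold of a separate complex that holds the deacetylases HDAC1 and HDAC2 and is brought to DNA by factors such as the MAX partners of the MXD family. In animal mRNA, m5C is written by NSUN2 and NSUN6, and an embryo at stage 0 has not begun general transcription, so its mRNA was loaded into the egg by the mother.

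ncor1 (gene25495, minus strand of Chr02 in the Xenbase X. tropicalis v9.1 assembly) carried 20, 17, 17 and 18 listed sites at 5, 10, 20 and 100 ng. The median gene with any site had 2 in each list, and only 3, 7, 8 and 5 genes had more than ncor1. sin3a (gene24465, plus strand of Chr03) had 5 sites in each of the 4 lists, and these were the same 5 positions. In the 100 ng list 742 genes had more sites than sin3a, and 17.1% of genes with a site had at least 5. ncor1 was thus among the genes with the most listed sites, while the number for sin3a was shared by many genes.

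The ncor1 sites lay between positions 31382206 and 31471475, a stretch of 89269 nt of genome that includes introns. The sin3a sites lay between 83724042 and 83754250, over 30208 nt. Positions are printed as in the deposited lists, which do not state whether counting begins at 0 or at 1. Exon and intron boundaries of this assembly were not used here, so distances are along the chromosome and not along the mRNA. By the annotation published with the study, the first sin3a site lies in the untranslated region ahead of the coding sequence. It belongs to the class that the paper assigns to NSUN2. In the paper, that class takes in every site that lacks the sequence motif assigned to NSUN6. No motif of NSUN2 was required, and the enzyme was not tested in frogs. The other sites were not classed here.

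**Figure D1:**
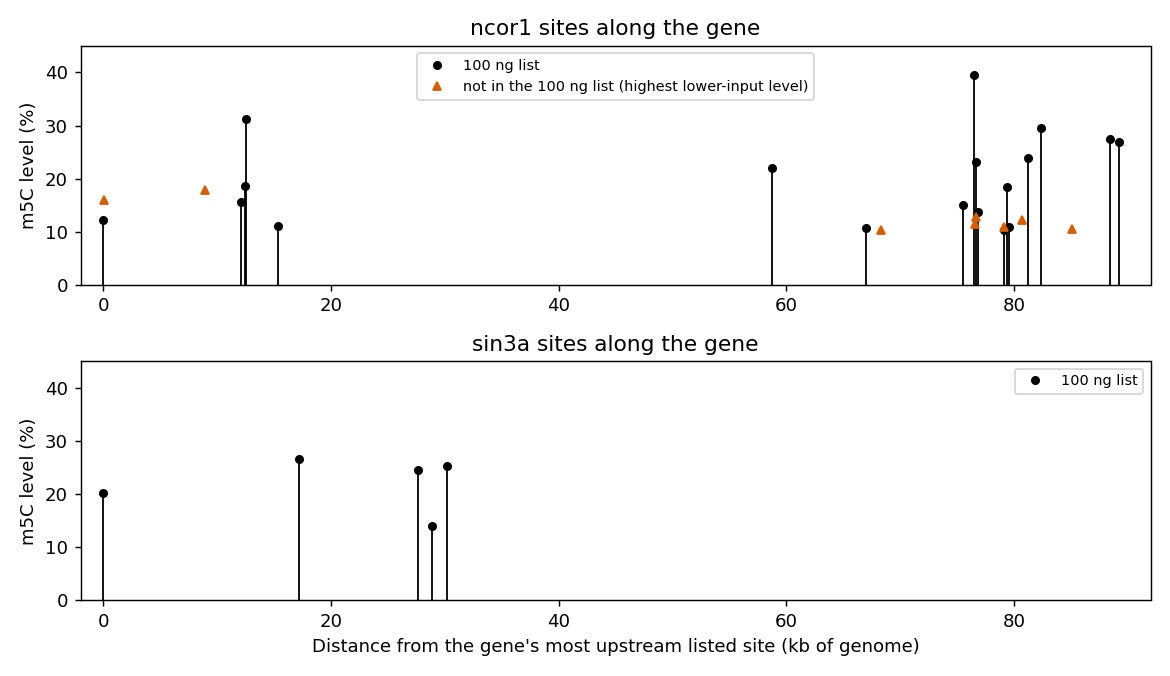
Distance of each listed ncor1 (top) and sin3a (bottom) site from the first listed site in the direction of transcription, in kb of genome (x axis), and its m5C level in percent (y axis). Black points are levels at 100 ng and orange triangles are sites absent from that list, drawn at their highest lower-input level. The ncor1 sites fall into groups of 7 and 19 on either side of 43360 nt without a site, and the 5 sin3a sites were all in the 100 ng list.

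Read in the direction of transcription, the ncor1 sites fell into 2 groups separated by 43360 nt without a listed site. The upstream group had 7 sites over 15347 nt, of which 5 were listed at 100 ng, at a median level of 15.6% and with 212 reads at the median site. The downstream group had 19 sites over 30562 nt, of which 13 were listed at 100 ng, at a median level of 21.9% and with 437 reads at the median site. Coverage and level were thus both higher in the downstream group. The 2 groups were drawn after the positions were seen and get no test.

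Neighbouring ncor1 sites of the 100 ng list were 95 to 43360 nt apart, with a median of 1149 nt, and 4 of the 17 gaps were of at most 300 nt. The 4 gaps of sin3a ranged from 1231 to 17219 nt, with a median of 5879 nt. Over the 1102 genes with at least 5 sites, the median of the gene medians was 1339.5 nt, so the ncor1 sites had about ordinary spacing and those of sin3a were more widely set, with 88.5% of these genes at the same or a smaller median gap. The span of ncor1 and that of sin3a were both above the median span of these genes, 19113.5 nt.

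Of the 26 ncor1 sites, 13 were in all 4 lists, 1 in 3, 5 in 2 and 7 in 1 list, and 8 were not in the 100 ng list. The 13 sites missing from at least 1 list never had a level above 17.9% in any list that held them. All 8 ncor1 sites that reached 20% at 100 ng, and all 4 such sites of sin3a, were found in every lower-input list. The exact intervals of these shares were 63.1 to 100% for ncor1 and 39.8 to 100% for sin3a. Over all genes, 6013 of 9759 such sites (61.6%) were found in every lower-input list. These shares were not matched for coverage or for the rule of the call. At 100 ng, all listed sites had a median of 348.5 reads in ncor1, 348 in sin3a and 183 over all genes. The incompletely listed sites of ncor1 stayed below 20%. Their highest level, 17.9%, was that of 31462559 at 10 ng, with 5 of 28 reads unconverted. That site was itself the median of the ncor1 levels at 10 ng, and 5 was the fewest unconverted reads listed at the lower inputs. Sites in all 4 lists could be as low, such as 31394599 at 13.0 to 14.2%. The listing minimum of 10% and the fewest unconverted reads of listed sites bear on which low sites are missing. The split is therefore a description only.

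A case among the incompletely listed sites was a matter of a single base. Position 31392364 was listed only at 100 ng, at 10.2% (63 of 615 reads), whereas the adjacent position 31392363 was listed at 5 ng at 10.8% (20 of 185 reads) and at 20 ng at 10.5% (15 of 143 reads). Over the whole data, such an exchange of a site for its direct neighbour occurred for 6 of 7370, 7 of 7987 and 7 of 7165 sites of the 100 ng list that were missing at 5, 10 and 20 ng. Whether a single cytosine was placed differently or both were methylated near the 10% minimum cannot be told apart from the lists.

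The share of the 100 ng sites that each lower-input list contained is the first comparison between lists. The 100 ng list differs from the others in input and in having replicates behind its call. The part of the call rule in the shares was not tested. For ncor1 this was 14 of 18 at 5 ng (77.8%, interval 52.4 to 93.6%), 15 of 18 at 10 ng (83.3%, 58.6 to 96.4%) and 14 of 18 at 20 ng (77.8%, 52.4 to 93.6%). For sin3a it was 5 of 5 in each list (interval 47.8 to 100%). Over all genes the shares were 60.2%, 56.9% and 61.3%. The value for all genes lay inside the sin3a intervals and inside those of ncor1 at 5 and 20 ng, and just below that of ncor1 at 10 ng. All intervals of shares in this report treat the sites of a gene as independent. Such sites share their transcripts and are not replicates, so these intervals are no test against all genes.

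The sites of both genes were also well covered. At 100 ng the median coverage was 348.5 reads over the ncor1 sites and 348 over the sin3a sites, against 183 over all sites. When only sites with 100 reads or more at 100 ng were kept, the share found for ncor1 was 13 of 16 at 5 ng (81.2%, interval 54.4 to 96.0%), 14 of 16 at 10 ng (87.5%, 61.7 to 98.4%) and 13 of 16 at 20 ng, and for sin3a 5 of 5 in each. Over all sites kept in this way the shares were 79.3%, 78.2% and 81.6%, which lay inside the ncor1 intervals, and the part of coverage in the shares was not tested. In the other direction, 6 of 20, 2 of 17 and 3 of 17 ncor1 sites of the 5, 10 and 20 ng lists were not in the 100 ng list, while every sin3a site was. The share of lower-input sites that the 100 ng list held was 70.0%, 88.2% and 82.4% for ncor1 and 84.8%, 85.4% and 86.2% for all sites. In this direction too, the part of the call rule was not tested.

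Of the ncor1 sites covered by 50 reads or more in all 4 lists, the 3 highest at 100 ng were at 31458951, 31389060 and 31383021. The site at 31458951 had levels of 21.2% (18 of 85 reads), 30.4% (21 of 69), 34.2% (25 of 73) and 31.2% (74 of 237, interval 25.4 to 37.5%) from 5 to 100 ng. The site at 31389060 had 33.1% (40 of 121), 20.9% (18 of 86), 36.6% (34 of 93) and 29.6% (95 of 321, interval 24.7 to 34.9%) in the same order of inputs. The site at 31383021 had 31.5% (67 of 213), 21.2% (21 of 99), 16.1% (23 of 143) and 27.4% (103 of 376, interval 22.9 to 32.2%). The lowest value of each site came from a different list, the 5 ng list for the first, the 10 ng list for the second and the 20 ng list for the third, and their order at 100 ng was within the counting error.

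The 3 ncor1 sites with the lowest level by the same rule were at 31394599, 31395906 and 31392045. The site at 31394599 had 14.2% (34 of 240), 13.0% (47 of 361), 13.0% (48 of 370) and 13.7% (160 of 1164 reads, interval 11.8 to 15.9%) from 5 to 100 ng. The site at 31395906 had 10.4% (12 of 115), 16.9% (12 of 71) and 17.8% (19 of 107) at the lower inputs, and at 100 ng 67 of 448 reads were unconverted (interval 11.8 to 18.6%). The site at 31392045, the one with the most reads in ncor1, had 17.0% (48 of 283), 15.2% (40 of 264), 14.5% (55 of 379) and 18.4% (223 of 1212, interval 16.3 to 20.7%). The 2 deeply covered sites varied by 1.19 and 3.89 percentage points between their lowest and highest lists, against 7.32 for the less covered site at 31395906.

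At 100 ng, the intervals of these 3 sites lay below those of the 3 high sites, a separation beyond the counting error that the choice of highest and lowest sites favours. The highest level of ncor1 in that list was at 31394963, which had fewer than 50 reads at 10 ng and so fell outside that rule, and it was singled out after its values were seen. Its levels were 25.0% (26 of 104 reads), 29.8% (14 of 47), 37.7% (29 of 77) and 39.6% (114 of 288, interval 33.9 to 45.5%). It stood 115 nt from the next site of the 100 ng list, at 31394848, whose levels were 17.6%, 17.4%, 32.2% and 23.1%.

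**Figure D2:**
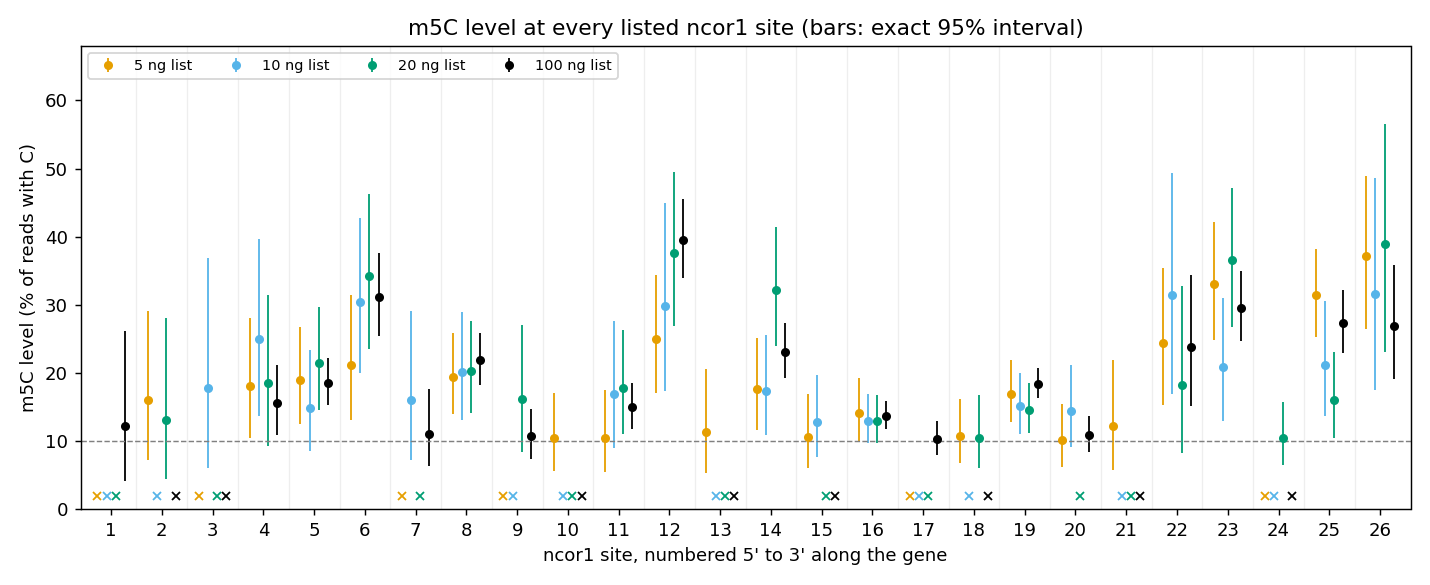
m5C level in percent (y axis) of every listed ncor1 site, numbered in the direction of transcription (x axis), for the 5, 10, 20 and 100 ng lists. Points are levels, bars are exact 95% counting intervals, crosses near the axis mark lists without the site, and the dashed line is the listing minimum of 10%. The highest level at 100 ng was 39.6%, and the bars of the lower inputs are wider than those of 100 ng at most sites.

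The 5 sin3a sites were all covered by at least 50 reads in every list. The first, at 83724042, had levels of 16.9% (10 of 59 reads), 20.7% (12 of 58), 30.5% (18 of 59) and 20.2% (57 of 282, interval 15.7 to 25.4%) from 5 to 100 ng. The next, at 83741261, had 28.1% (27 of 96), 21.6% (24 of 111), 29.1% (25 of 86) and 26.5% (90 of 339, interval 21.9 to 31.6%). The most deeply covered, at 83751726, had 14.4% (50 of 348), 23.1% (76 of 329), 20.7% (80 of 387) and 24.5% (326 of 1332, interval 22.2 to 26.9%). These 3 sites had overlapping intervals at 100 ng, and the third had its lowest level at 5 ng.

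The site at 83752957 had the lowest level of sin3a at 100 ng, with 17.4% (27 of 155), 10.1% (12 of 119), 14.1% (18 of 128) and 14.1% (49 of 348, interval 10.6 to 18.2%) from 5 to 100 ng. The last site, at 83754250, had 20.6% (37 of 180), 26.7% (40 of 150), 33.1% (47 of 142) and 25.4% (139 of 548, interval 21.8 to 29.2%). At 100 ng the interval of 83752957 lay below those of 83741261, 83751726 and 83754250 and overlapped that of 83724042. The order of the other 4 sites was not resolved by their intervals.

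**Figure D3:**
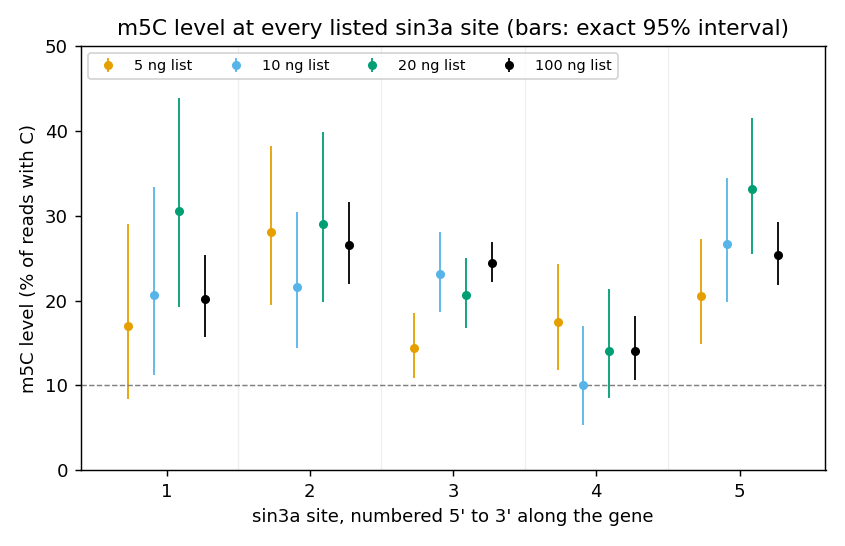
m5C level in percent (y axis) of the 5 sin3a sites in order along the transcript (x axis) in the 5, 10, 20 and 100 ng lists, with exact 95% counting intervals as bars. The site at 83752957 had 14.1% at 100 ng, below the other 4 sites, and the site at 83751726 had 14.4% at 5 ng against 24.5% at 100 ng.

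Each lower input was next compared with 100 ng at sites that had 50 reads or more in each of both lists. Unconverted and converted reads were set against each other in Fisher's exact test, two-sided, and p-values were adjusted by the Benjamini-Hochberg method over the sites of all genes, with a threshold of 0.05. Such a test compares the reads of 2 lists and not the inputs in general. At 5 ng, 14 ncor1 and 5 sin3a sites were tested and 1 site was called, where the test called 0.278% of all 7923 sites. Those calls over all genes were 22 sites, of which 19 were lower at 5 ng than at 100 ng and 3 higher. At 10 ng, 0 of 11 ncor1 and 0 of 5 sin3a sites were called, against 0.0406% of 7385 sites, and at 20 ng 0 of 12 and 0 of 5, against 0.15% of 8018 sites. At an unadjusted p under 0.05 the 52 tests of these genes gave 3 sites, 2 at 5 ng, 0 at 10 ng and 1 at 20 ng, where 8.75%, 8.61% and 7.4% of all sites passed.

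The called site was 83751726 of sin3a, which was 10.1 percentage points lower at 5 ng than at 100 ng (difference -10.1, interval -14.2 to -5.46, Fisher's exact p = 3.62e-05, adjusted p = 0.0270). Against 10 ng the 5 ng level was 8.73 points lower and against 20 ng 6.30 points lower, neither of which passed the adjustment (adjusted p = 0.413 and 0.626, Fisher's exact test). The other 4 sin3a sites differed from 100 ng at 5 ng by -4.81 to 3.34 points. The call of the exact test did not hold in a normal test of 2 proportions whose counting variance was multiplied by 1.42, the excess seen between the lower-input lists (adjusted p = 0.398). That setting called 0.0252% of all sites at 5 ng. The factor was estimated only at sites with a level of at least 30% over both lists, and 83751726 was below that in every list. For 5 against 100 ng the factor was 1.59.

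In ncor1 the largest differences from 100 ng at 5 ng and at 20 ng were at 2 of the sites given above. The site at 31394963 was 14.6 points lower at 5 ng (interval -23.9 to -3.95, Fisher's exact p = 0.00855, adjusted p = 0.354). The site at 31383021 was 11.3 points lower at 20 ng (interval -18.3 to -3.20, Fisher's exact test, adjusted p = 0.478). Neither passed the adjustment, although their unadjusted intervals did not include 0.

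Over the tested sites the mean difference from 100 ng was -1.25, -1.86 and 1.14 points for ncor1 and -2.65, -1.70 and 3.35 points for sin3a at 5, 10 and 20 ng, beside -0.414, -0.0087 and -0.0523 points for all sites. ncor1 sites were higher than at 100 ng in 7 of 14, 3 of 11 and 7 of 12 tests, and those of sin3a in 2, 2 and 3 of 5. Differences stayed within 10 points at 11 of 14, 11 of 11 and 11 of 12 ncor1 sites and at 4, 5 and 4 of 5 sin3a sites, and over all genes at 93.9% and 94.3% of sites at 5 and 10 ng and at 7618 of 8018 sites at 20 ng. Both genes thus had sites above and below the 100 ng level at each input. The 3 comparisons share the 100 ng reads and are not independent of each other.

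**Figure D4:**
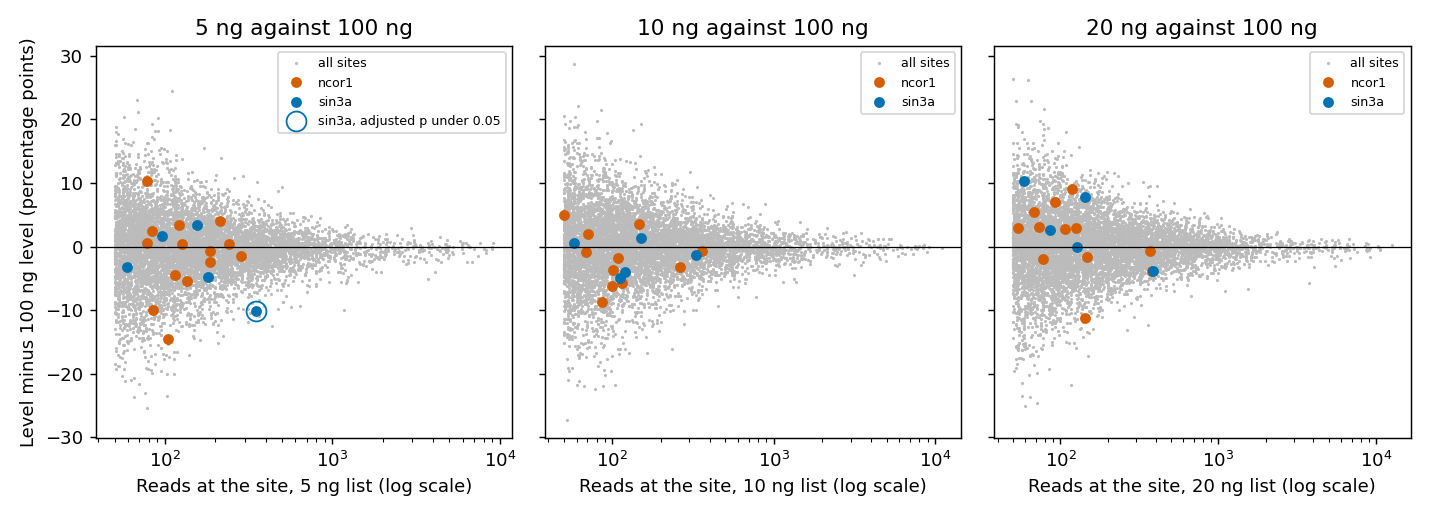
Level in a lower-input list minus the 100 ng level in percentage points (y axis) against reads at the site in the lower-input list on a log scale (x axis), for 5, 10 and 20 ng. Grey points are all tested sites, orange points ncor1 and blue points sin3a. The ringed sin3a site at 83751726, at -10.1 points, was the only site of these genes called by the exact test.

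The lower inputs were also compared with each other. Over 47 tests of ncor1 and sin3a sites, 0 were called by Fisher's exact test with adjustment and 7 had an unadjusted p under 0.05. These 7 were 1 of 16 tests at 5 against 10 ng, 4 of 17 at 5 against 20 ng and 2 of 14 at 10 against 20 ng. The pairs share lists, so their tests are not independent of each other. Over all sites the 5 against 10 ng, 5 against 20 ng and 10 against 20 ng pairs gave calls at 0.0146%, 0.0279% and 0.0429% of sites, and 7.21%, 6.66% and 6.54% had an unadjusted p under 0.05. The smallest adjusted p of these genes was for 31383021 of ncor1, 15.4 points higher at 5 ng than at 20 ng (interval 6.32 to 23.7, Fisher's exact test, adjusted p = 0.330).

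Levels over a whole gene were set side by side at the sites covered by 50 reads or more in all 4 lists. The 9 such ncor1 sites had a median level of 18.9%, 17.4%, 20.3% and 21.9% at 5, 10, 20 and 100 ng, and pooling their reads gave 20.1%, 16.9%, 19.2% and 19.7%. The 5 sin3a sites had a median of 17.4%, 21.6%, 29.1% and 24.5%, and pooling gave 18.0%, 21.4%, 23.4% and 23.2%. The sin3a median at 20 ng was above the pooled level, in which the most deeply covered site, at 20.7%, has the most weight. Over the 6162 sites of all genes chosen in the same way, the median was 25.1%, 25.6%, 25.5% and 25.5%. With at least 100 reads in all 4 lists, the sin3a medians were 17.4%, 23.1%, 20.7% and 24.5%. The 20 ng median of sin3a was then no longer the highest.

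Neither gene had a site at or above 50% in any list, although 16.2% of all sites at 100 ng were. The highest ncor1 level was 37.2%, 31.6%, 38.9% and 39.6% at 5, 10, 20 and 100 ng. Of the 31 genes with at least 15 sites at 100 ng, ncor1 had the lowest maximum, 30 had a site of at least 50%, the median maximum was 82.9%, and the next lowest was 55.8% in pcnx. ncor1 also had the lowest maximum among the 18, 20 and 18 genes with at least 15 sites at 5, 10 and 20 ng. With a minimum of 10 sites, 8 of 162 genes at 100 ng had a lower maximum than ncor1. The minimum of 15 sites was chosen with the data in view, and these ranks have no test.

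For sin3a the highest level at 100 ng was 26.5%, and 52 of the 1102 genes with at least 5 sites (4.72%) had a lower maximum. At 5, 10 and 20 ng these were 44 of 756, 30 of 665 and 83 of 737 genes. Of the 1102 genes at 100 ng, 741 (67.2%) had a site of at least 50%, so many of them lacked one as sin3a did. Summing the levels of the listed sites gives a mean number of m5C per mRNA molecule if every molecule carries all those sites. That condition was not checked. For ncor1 the sum was 3.69, 3.49, 3.70 and 3.60 at 5, 10, 20 and 100 ng, and for sin3a 0.974, 1.02, 1.27 and 1.11, where the median gene had 0.579, 0.562, 0.584 and 0.602. Only 81 genes had a larger sum than ncor1 at 100 ng and 1666 had a larger sum than sin3a. Listed sites stop at 10%, so these sums leave out less methylated cytosines.

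Genes with the most similar numbers of sites were sought among the 4041 genes with a site in every list, by the summed difference in site number over the 4 lists. For ncor1 these were sbf2, cnnm2 and lrp1, each at a summed difference of 6, with 17, 15, 18 and 18 sites in sbf2, 17, 15, 17 and 17 in cnnm2 and 16, 18, 17 and 17 in lrp1. Their median levels at 100 ng were 19.3%, 22.8% and 26.2%, against 18.5% in ncor1. For sin3a, 18 genes had the same number in every list, and the nearest in median level were cwc22, fnbp4 and caprin1, at 24.5%, 23.9% and 25.2% against 24.5%. Caprin1, an RNA-binding protein, had a median coverage of 6597 reads at 100 ng and sin3a had 348, so equal site numbers were found at unequal depths.

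Partners of the 2 scaffolds were taken from a list of 64 genes, comprising 11 of the NCoR complex, 26 of the SIN3 and HDAC complex and 27 factors known to recruit either, ncor1 and sin3a included. At 5, 10, 20 and 100 ng, 28, 29, 31 and 41 of them had at least 1 listed site. In the 100 ng list these were 7 of 11, 20 of 26 and 14 of 27 in the 3 groups. Over all genes, 4863, 4706, 4952 and 6458 had a listed site at 5, 10, 20 and 100 ng. The share of all annotated genes with a site is not given here, so the partner counts cannot be read as many or few. The 130 sites of the list at 100 ng had a median level of 21.1%, next to 20.9% for all sites, and a median of 2 sites per gene, as over all genes. Besides ncor1 the gene with the most sites was spen, a large RNA-binding corepressor, with 11 sites, a median level of 39.3% and a highest level of 87.1%. The nuclear receptor nr1d1 had 7 sites, the MAX partner mxi1 had 6, and tbl1xr1, a TBL1 protein of the NCoR complex, and the histone demethylase kdm5b had 5 each, as did sin3a. The kdm5b sites were listed only at 100 ng, with a median coverage of 48 reads there.

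The sin3a paralogue and the deacetylases were picked for their relation to the 2 scaffolds. The paralogue, sin3b, had 3, 2, 5 and 4 sites at 5, 10, 20 and 100 ng and a highest level of 89.0% at 100 ng. The deacetylase of the NCoR complex, hdac3, had 1, 1, 1 and 2 sites and a highest level of 91.8%, 95.9%, 95.6% and 93.7%. Those of the SIN3 complex, hdac1 and hdac2, had 2 sites and 1 site at 100 ng, with highest levels of 24.7% and 27.1%. Within the same complexes, genes with few sites thus included both higher and lower maxima than those of ncor1 and sin3a.

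**Figure D5:**
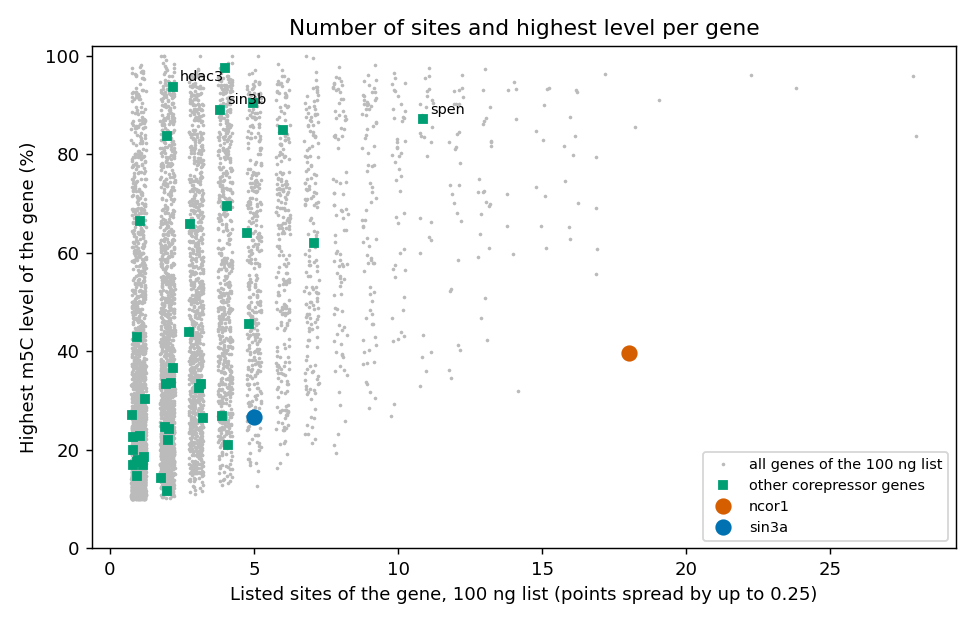
Number of listed sites at 100 ng (x axis, points spread sideways for view) and highest m5C level at 100 ng in percent (y axis) per gene. Grey points are all genes of the list, green squares the other corepressor genes, and ncor1 and sin3a are the large points. ncor1 combines 18 sites with a highest level of 39.6%, sin3a has 5 sites with a highest level of 26.5%, and hdac3 has 2 sites with a highest level of 93.7%.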

How the data were processed

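The RNA of pooled embryos was bisulfite converted and sequenced, and per the labels the processing used bcl2fastq 2.17, cutadapt, Trimmomatic, HISAT2 2.10 and SAMtools. Reads with many unconverted cytosines were removed, which can lower levels where m5C is dense. Per site, the authors deposited coverage as a count of C and T reads, the m5C level as a fraction of that count, and a p-value from calling, which was not used here. Replicates of 100 ng were combined by the authors, so no replicate test could be made.

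Unconverted reads were level times coverage, whole within 2.6e-05 reads. Sites were matched by chromosome, position and strand. Python 3.11.15, pandas 2.3.3, numpy 2.4.6, scipy 1.17.1 and matplotlib 3.10.9 were used, and the tests were tested on simulated data. The simulated reads carried counting error only, without the excess variance seen between the lists. Fisher's exact test and its adjustment ran over all sites of a pair of lists. Intervals of differences are Newcombe 95% intervals.

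The genes, their partner list and the rules for named sites were chosen with earlier results of these data known. Among sites of 50 reads or more in all 4 lists, the 3 highest and the 3 lowest of each gene at 100 ng were named, besides called sites. Genes most alike were the 3 per gene nearest in site numbers, with ties settled by median level, and partners were the 5 with the most sites, ties included. The values of 1 listed gene are not reported here. Alternatives set the coverage minimum to 20, 50 or 100 reads and the level minimum to 20%, or used pooled reads, sites of each own list, a minimum difference of 10 points and a variance factor. Of 64 partner symbols, 61 were in the reference gene table. No sequence was analysed here.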

Additional observations from a re-analysis of the deposited data

How the results depend on the processing

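Site numbers depended on the minimums. With at least 100 reads ncor1 had 13, 7 and 9 sites at 5, 10 and 20 ng, and sin3a had 3 at 5 ng and 3 at 20 ng. With a level of at least 20%, ncor1 had 6, 8, 7 and 8 sites at 5, 10, 20 and 100 ng and sin3a 2 at 5 ng, and the share of the 100 ng sites of ncor1 that was found was 100% in each lower input. With the variance factor, 0 ncor1 and sin3a sites were called at 5 ng against 100 ng, and the adjusted p of 83751726 was 0.398. At a level of at least 20% the median gap was 4639 nt for ncor1 and 10465 nt for sin3a. The other alternatives of the results given here, 78 for summary values and 12 for the called site, the gaps and the number of partner genes with a site, kept their side of the threshold or stayed within the counting error or 1.5 times the count. No paired analysis was possible because both 100 ng libraries are held in 1 list and each lower input had 1 library, and for the same reason no library could be left out. Depth limits the lower inputs, as at 83724042 with 59 reads at 20 ng, where the interval of the level ran from 19.2 to 43.9%.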
